A study of Tupaia belangeri with 2 samples.

Results

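The cells described here were the choroid plexus epithelium-type cells of the embryonic tree shrew brain, 99 of 17727 cells in all. They were chosen by their counts of 3 genes, TTR, CLIC6 and FOLR1: a cell with at least 200 genes detected was taken when at least 2 of these genes were detected and the 3 together had at least 5 unique molecular identifiers (UMIs, each marking 1 captured transcript). They come from single-cell RNA sequencing of the whole brains of 2 Tupaia belangeri embryos, aged 4 to 5 postconceptional weeks. Each embryo was made into 1 droplet library (10x Chromium, 3′ chemistry v3), and the labels name no treatment, genotype or other condition. The dura mater and blood vessels had been taken off the brains before papain digestion, and a density gradient had removed debris. Embryo 1 gave 51 choroid plexus-type cells of 8401 cells (0.607%, exact 95% binomial interval 0.452 to 0.797) and embryo 2 gave 48 of 9326 (0.515%, 0.380 to 0.682), a mean of 0.561% ± 0.0653 (SD, n = 2 embryos). The intervals overlapped, and intervals and limits given here cover counting error only.

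The choroid plexus is a vascularized fold in the brain ventricles whose epithelium secretes cerebrospinal fluid and forms the barrier between blood and that fluid. Its cells arise from the dorsal midline of the neural tube under BMP signals, carry motile cilia, move ions and water with pumps and exchangers, and release carrier proteins. Transthyretin, the product of TTR, carries thyroid hormone and vitamin A and is the best known of them, FOLR1 is the folate receptor that brings folate into the fluid, and CLIC6 is a chloride intracellular channel protein typical of this epithelium.

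The 3 genes that chose the cells are given as a description. TTR (evm.model.chr13.294) stood at 99844 and 111382 UMIs per 1000000 UMIs (CPM) in the choroid plexus-type cells of embryos 1 and 2, against 345 and 221 CPM in other cells. TTR was by far the most abundant of the 3 in both embryos. FOLR1 (evm.model.chr18.591) stood at 625 and 902 CPM and CLIC6, which has 4 gene models under its name, at 144 and 98.3 CPM. All 99 cells had TTR, 79 had FOLR1 and 34 had CLIC6, with 65 cells holding TTR and FOLR1 only, 20 holding TTR and CLIC6 only and 14 holding all 3. The choroid plexus-type cells, 0.561% of the cells, held 62.4% and 79.0% of the TTR UMIs of all cells of embryos 1 and 2, and 85.2% and 93.0% of the FOLR1 UMIs. Outside them, 14.6% and 13.7% of cells also had a TTR UMI.

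The TTR share varied widely among the cells. In embryo 1 it ran from 0.211% of a cell's UMIs through a median of 11.4% to 25.3%, and in embryo 2 from 0.123% through 9.68% to 46.7%. The ranges overlapped up to 25.3%, and the cells above that were all of embryo 2. The cells were shallower than the rest in embryo 1, with a median of 1830 UMIs and 565 genes against 3537 UMIs and 1145 genes over all cells, and close to the rest in embryo 2, with 3306 UMIs and 977.5 genes against 3169.5 and 1162. Just inside the threshold stood 2 cells with fewer than 10 UMIs of the 3 genes, the lowest with 6 and 8, and 4 of the 99 cells had fewer than 20. Just outside it stood 11 cells with 2 of the genes but under 5 UMIs. A further 185 cells had at least 5 UMIs of the 3 genes, all of 1 gene only, and 64 cells outside had at least 50 TTR UMIs, against 85 inside. The rule thus left out cells as rich in TTR as those it took, and taking every cell with at least 50 TTR UMIs gave 149 cells.

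Some of the 99 cells carried the transcripts of another type as well. Haemoglobin genes made up at least 5% of the UMIs in 5 cells, 3 in embryo 1 (16.9% to 86.2% haemoglobin, 198 to 369 TTR UMIs) and 2 in embryo 2 (42.7% to 90.1% haemoglobin, 22 to 93 TTR UMIs). These 5 cells held 20.3% and 8.70% of the UMIs of the choroid plexus-type cells of embryos 1 and 2. Another 10 cells, 3 and 7, met a gate for neurons (at least 3 of the neuron genes STMN2, DCX, TUBB3, INA and ELAVL4, with at least 5 UMIs of them). None of the 99 met the gates for radial glia, meningeal fibroblasts, endothelium or microglia. Whether the 15 cells were droplets with more than 1 cell was not tested, and no doublet caller was run. The libraries shared 18 barcode sequences, of which 1 belonged to a choroid plexus-type cell.

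**Figure D1:**
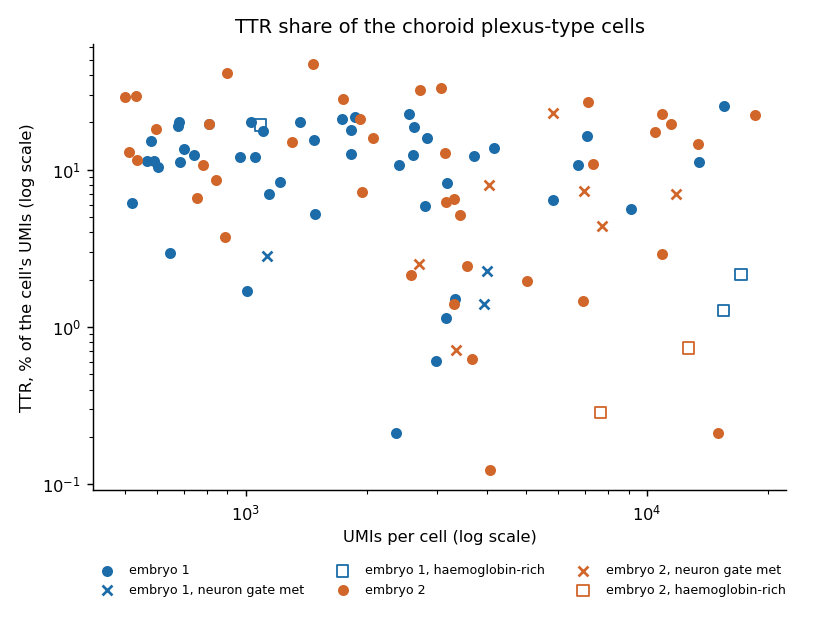
Each point is 1 choroid plexus-type cell, with its UMIs on the x axis and the percent of them from TTR on the y axis (both log scales), colored by embryo. Crosses are the 10 cells that met the neuron gate and open squares the 5 haemoglobin-rich cells, of which 4 lie at the deep end with low TTR shares. The embryos overlap up to 25.3% TTR, and the cells above that are of embryo 2.

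To find which other genes set these cells apart, UMIs were summed per embryo and cell class and tested in 1 fit over 6 classes (edgeR's quasi-likelihood test, embryo as a block, Benjamini-Hochberg adjustment over 3654 genes, threshold 0.05). Other cells were the 7086 and 8728 cells left when haemoglobin-rich cells and those of the gates for radial glia, meningeal fibroblasts, endothelium and microglia were set aside. They included neurons and dividing cells, with the neuron gene STMN2 at 1576 and 1885 CPM. Cells rich in TTR that the rule left out also stayed among them, unless they met one of those gates or were haemoglobin-rich. The p-values rest on the spread between 2 embryos that is left after the embryo block, pooled over the 6 classes. They do not measure the spread of the choroid plexus-type cells alone. Levels are CPM, and log2 changes come from the fit, which rescales the classes with TMM factors (0.706 and 0.904 for the choroid plexus-type cells, 1.25 and 1.27 for other cells), so a gene with equal CPM has a positive log2 change. Against other cells, 867 genes (23.7% of those tested) were called, 562 higher (15.4%) and 305 lower (8.35%), around a median change of -0.10 over all genes tested. Counts over all genes include genes that chose the cells or classes and haemoglobin genes, whose difference the choice could fix in advance. Scaling by library totals alone moved this median to -0.74 and the split to 247 higher and 1290 lower, and DESeq2 gave 603 higher and 175 lower.

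**Figure D2:**
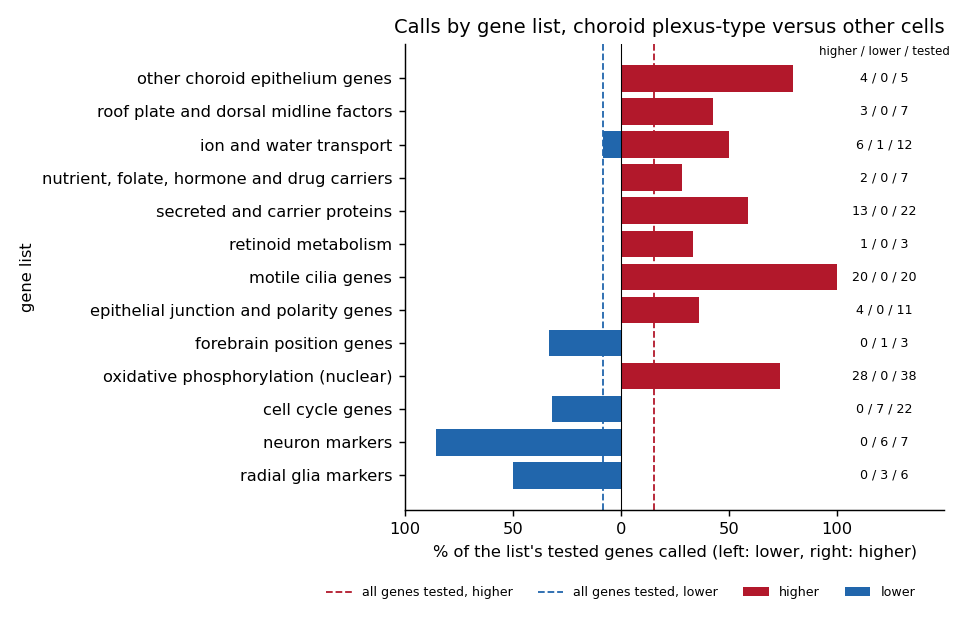
Bars give the percent of each list's tested genes called higher (right) or lower (left) in the choroid plexus-type cells than in other cells, with the counts at the right, for the lists with at least 3 genes tested, without the meningeal fibroblast markers, of which 0 of 3 were called. Dashed lines mark the 15.4% and 8.35% called over all genes. The forebrain, cell cycle, neuron and radial glia lists pass the line for lower calls and have 0 higher, and every other list shown passes that for higher calls, among them lists with as few as 3 genes tested.

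A share of the genes of secreted and carrier proteins were higher in the choroid plexus-type cells than in other cells. Of the 39 such genes with a model of that name, 22 passed the filter on low counts, and 13 of them were higher, 0 lower and 9 not called, where 15.4% of all genes tested were higher. Over all 39, 14 stood higher and 10 lower in both embryos, and without the filter 12 were called, with a median log2 change of 0.57. Their median log2 change was 2.01, or 2.92 with genes at 0 in a class set at their bound or left out where that bound told nothing, against -0.10 and -0.06 over all genes tested. A gene could pass the filter through the choroid plexus-type cells alone, so the counts of each list describe the genes that passed. C2ORF40, which encodes augurin, a secreted peptide precursor made by the choroid plexus, stood at 926 and 1919 CPM in the choroid plexus-type cells of embryos 1 and 2 and at 3.60 and 7.15 CPM in other cells. The groups lay far apart, and its log2 change of 8.64 ± 0.25 (SE, adjusted p = 3.84e-17) was the largest of all genes that met the rule for named genes. A C2ORF40 UMI was present in 70.6% and 81.2% of the choroid plexus-type cells and in 1.14% and 1.42% of other cells. Of the microglia-type cells, whose median depths were 1549.5 and 3849 UMIs, 2.70% and 0 had one. The count of 0 in the 56 cells of embryo 2 allows up to 5.36% with a UMI. It sets no limit on the share of cells that express the gene.

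IGFBP7, a secreted binder of insulin-like growth factors, stood at 463 and 765 CPM against 8.88 and 7.77 CPM in other cells, a log2 change of 6.80 ± 0.23 (adjusted p = 2.22e-16). IGF2, a growth factor of cerebrospinal fluid, was at 48.1 and 42.7 CPM against 1.34 and 0.906 CPM (5.94 ± 0.59, adjusted p = 6.22e-08), but at a mean of 268 CPM in meningeal fibroblast-type cells. PLTP, the phospholipid transfer protein, was at 78.2 and 184 CPM against 8.43 and 8.96 CPM (4.51 ± 0.35, adjusted p = 5.67e-10), and the matricellular CTGF rose by 3.53 ± 0.53. In each of these genes both embryos showed the same direction, and no value of other cells reached one of the choroid plexus-type cells. CP, the copper carrier ceruloplasmin, was unevenly spread: it stood at 1239 and 406 CPM against 32.7 and 20.3 CPM (5.47 ± 0.34, adjusted p = 5.97e-11), but 177 of its 206 UMIs in embryo 1 came from 1 cell, while 17 cells shared its 95 UMIs in embryo 2. PTN, the growth factor pleiotrophin, was not called (-0.17, adjusted p = 0.80), at 96.2 and 543 CPM against 642 and 525 CPM. As a whole the list was no property of these cells alone: it summed to 3848 and 5390 CPM in them, to 1408 and 1346 CPM in other cells, and to 19776 and 24298 CPM in meningeal fibroblast-type cells.

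Of 21 further choroid epithelium genes, 15 had a UMI in the choroid plexus-type cells and only 5 passed the filter, of which 4 were higher (15.4% over all genes tested). CALL4 (the name used for CALML4, a calmodulin-like protein) stood at 283 and 380 CPM against 36.6 and 39.8 CPM, a log2 change of 3.73 ± 0.24 (adjusted p = 3.97e-11). ENPP2, the secreted enzyme autotaxin, rose by 3.51 ± 0.56 and IGFBP2, an insulin-like growth factor binder, by 1.83 ± 0.25 (adjusted p = 5.26e-05 and 5.88e-06). These levels were not limited to the choroid plexus-type cells: the list summed to 1185 and 1372 CPM in them and to 1394 and 1400 CPM in meningeal fibroblast-type cells, where ENPP2 stood at 92.9 and 99.7 CPM against 30.1 and 55.6 CPM and IGFBP2 at 199.8 and 208 CPM against 204 and 209 CPM. Several genes known from this epithelium were too sparse for the filter. HTR2C, the serotonin 2C receptor of this epithelium, had 11 and 9 UMIs in the choroid plexus-type cells, or 66.1 and 38.5 CPM, against 0.446 and 0.712 CPM in other cells. SLC4A5, the sodium bicarbonate cotransporter of the ventricular face, had 9 and 5 UMIs (54.1 and 21.4 CPM against 0.0743 and 0.0971 CPM), and K2C8, keratin 8, had 10 and 9 UMIs. These 3 genes had 0 UMIs in the radial glia-type, meningeal fibroblast-type, endothelial-type and microglia-type cells. SLC13A4, a sulfate carrier, had 6 and 8 UMIs, or 36.1 and 34.2 CPM, and stood at 18.6 and 48.7 CPM in meningeal fibroblast-type cells. Without the filter, 9 genes of this list were called, all higher, with adjusted p-values of 5.09e-12 for HTR2C, 1.92e-09 for SLC4A5, 9.01e-12 for SLC13A4 and 6.94e-12 for K2C8. KL, TMEM72, CLDN2, STRA6, TRPV4 and K1C18 had 0 UMIs in the 400253 UMIs of the choroid plexus-type cells, which allows up to 7.50 CPM over both embryos, and the water channel AQP1 had 0 and 1. At this depth their absence could not be told from a low level.

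Genes that move ions and water gave 6 higher and 1 lower of 12 tested, with a median log2 change of 0.98 against -0.10 over all genes tested, of which 15.4% were higher and 8.35% lower. Over all 41 genes with a model, 14 stood higher and 15 lower in both embryos, and library totals gave 3 higher and 1 lower of the 12, with a median of 0.35. The list summed to 1275 and 1693 CPM in the choroid plexus-type cells and to 2109 and 2211 CPM in meningeal fibroblast-type cells. PLM, the name used for FXYD1 or phospholemman, a regulator of the sodium pump, stood at 78.2 and 158 CPM against 3.34 and 4.95 CPM (5.43 ± 0.38, adjusted p = 1.96e-10). SLC4A2, the chloride-bicarbonate exchanger of the blood-facing side, stood at 120 and 214 CPM against 13.9 and 12.6 CPM (4.24 ± 0.34, adjusted p = 1.55e-09). SLC12A2, the sodium-potassium-chloride cotransporter of the ventricular side, stood at 36.1 and 98.3 CPM against 15.6 and 14.0 CPM (2.84 ± 0.39, adjusted p = 6.97e-06). The sodium pump subunit ATP1B1 and the channel protein CLIC1 rose less (1.45 ± 0.38 and 1.37 ± 0.27, adjusted p = 0.0078 and 0.00060), and neither was called when classes were scaled by library totals. The subunit ATP1B3 had 0 UMIs in the choroid plexus-type cells and a mean of 17.8 CPM ± 1.78 (SD, n = 2) in other cells, at least 2.37-fold lower against a floor of 3 counts over the group (adjusted p = 0.037), a call lost under 5 alternatives. Too sparse for the filter were the carbonic anhydrases CAH3 (CA3) with 3 and 17 UMIs (0.483 and 0.550 CPM in other cells) and CA4 with 3 and 10 UMIs (0.371 and 0.162 CPM). Among carriers of nutrients, hormones and drugs, 2 of 7 tested were higher and 0 lower (median 0.15 as fitted, 0.79 at the bound and -0.49 with library totals). Over all 39, 8 stood higher and 18 lower in both embryos, and the list summed to 271 and 312 CPM against 646 and 738 CPM in meningeal fibroblast-type cells. SLC39A12, a zinc importer, stood at 78.2 and 68.4 CPM against 2.34 and 1.84 CPM (5.75 ± 0.60, adjusted p = 3.51e-07), and SLC2A12, a glucose transporter, rose by 4.03 ± 1.12 from 1 and 4 UMIs. MOT1 (SLC16A1), a lactate carrier, was not called, at 36.1 and 55.6 CPM against 46.1 and 37.1 CPM. Of the 3 retinoid genes tested, RARRES2, the chemokine-like chemerin, was higher on 1 and 2 UMIs (4.13 ± 1.19, adjusted p = 0.014), and CRABP1, the retinoic acid-binding protein, was not called (-0.84, adjusted p = 0.16).

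**Figure D3:**
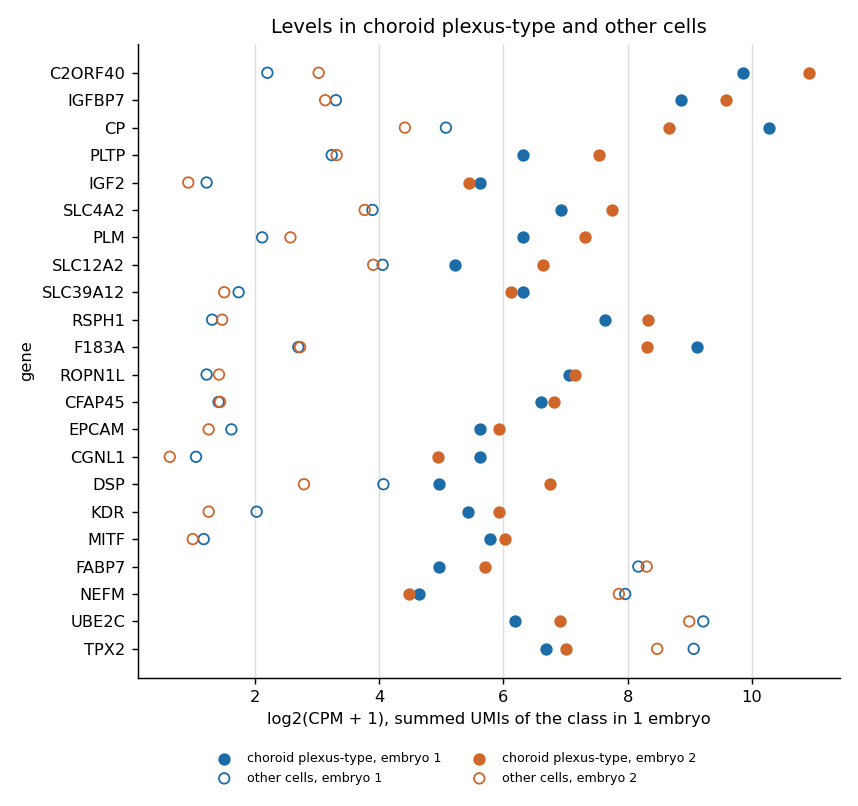
Each row is 1 gene, with log2(CPM + 1) on the x axis, filled circles for choroid plexus-type cells and open circles for other cells, 1 circle per embryo. For the secreted, transport, cilia and epithelial genes both filled circles lie to the right of both open ones, and for FABP7, NEFM, UBE2C and TPX2 to the left.

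Every motile cilia gene that passed the filter was higher in the choroid plexus-type cells than in other cells. Of 79 such genes with a model of that name, 74 had a UMI in the choroid plexus-type cells and 58 were higher in them than in other cells in both embryos. The filter left 20, of which 20 were higher (15.4% over all genes tested), with a median log2 change of 4.58, and without the filter 45 of the 79 were called, all higher. RSPH1, a protein of the radial spoke head, stood at 198 and 321 CPM against 1.49 and 1.78 CPM (7.88 ± 0.43, adjusted p = 5.67e-12). ROPN1L, another radial spoke protein, stood at 132 and 141 CPM against 1.34 and 1.68 CPM (7.08 ± 0.54, adjusted p = 2.53e-09). F183A (FAM183A), found in ciliated epithelia, stood at 553 and 316 CPM against 5.50 and 5.63 CPM (6.86 ± 0.31, adjusted p = 1.01e-12), a call that DESeq2 did not make in any of the 3 comparisons reported here. AK7, an adenylate kinase of the axoneme, CFAP45, a protein inside its microtubules, and SPEF2, of its central pair, rose by 6.96 ± 0.84, 6.53 ± 0.53 and 6.44 ± 0.43. In all 6 the values of both embryos lay far above those of other cells. FOXJ1, the transcription factor that switches on the motile cilia program, had 0 and 3 UMIs in the choroid plexus-type cells, too few for the filter.

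The list summed to 4335 and 4758 CPM in the choroid plexus-type cells, to 855 and 851 CPM in other cells and to at most 932 CPM in any other class, and it stood at 5326 and 5178 CPM without the haemoglobin-rich cells. Per cell, a median of 6 and 8 cilia genes had a UMI, and 74.5% and 87.5% of cells had at least 3, against 35.0% and 31.9% of other cells. Thinned to 1000 UMIs per cell, which left out 13 and 11 choroid plexus-type cells, the shares were 55.3% and 62.2% against 4.15% and 4.35% of other cells and 3.64% and 1.96% of microglia-type cells. The transcripts were unevenly spread. In embryo 1, 2 cells with 30 and 44 cilia genes held 40.1% of the list's UMIs, and in embryo 2, 7 cells with 26 to 45 cilia genes held 62.0%. These cells were picked by that number after it was seen. Their TTR shares were 11.1% and 25.3%, the second being the highest of embryo 1, and 6.53% to 27.0% in embryo 2. In the remaining cells the list still summed to 3148 and 2544 CPM, with a median of 6 cilia genes in each embryo, so the cilia transcripts were not limited to the richest cells.

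**Figure D4:**
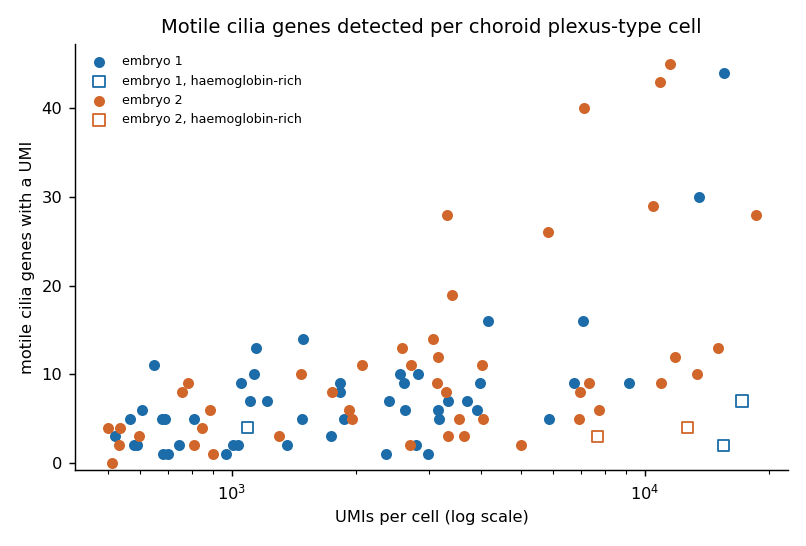
Each point is 1 choroid plexus-type cell, with its UMIs on the x axis (log scale) and the number of motile cilia genes with a UMI on the y axis, colored by embryo, and open squares for the haemoglobin-rich cells. The 9 cells with 26 to 45 cilia genes all have at least 3310 UMIs, and many cells of the same depth have 10 or fewer.

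Other genes at the top of the comparison fell outside these lists. ADGB, which encodes androglobin, stood at 132 and 201 CPM against 0.891 and 1.13 CPM (7.93 ± 0.50, adjusted p = 9.51e-11). WDR38 stood at 66.1 and 89.8 CPM (7.56 ± 0.67) and PVALB, the calcium-binding parvalbumin, at 84.2 and 103 CPM (7.74 ± 0.60), against 0.483 and 0.712 CPM and 0.891 and 0.453 CPM in other cells. CFAB, complement factor B, stood at 66.1 and 38.5 CPM against 0.446 and 0.291 CPM (7.64 ± 0.84, adjusted p = 5.03e-07), and CAB39L, a scaffold of the kinase LKB1, at 84.2 and 64.1 CPM against 0.854 and 1.04 CPM (6.85 ± 0.67, adjusted p = 2.14e-07, not called by DESeq2). Between 17 and 22 of the 99 cells had a UMI of each of these 5 genes, so none came from a single cell.

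Factors of the roof plate and dorsal midline, where this epithelium arises, were mixed: 3 of 7 tested were higher and 0 lower, where 15.4% of all genes tested were higher and 8.35% lower. Their median log2 change was 0.73, or 0.92 at the bound, against -0.10 and -0.06 over all genes tested. Over all 21 genes with a model, 6 stood higher and 6 lower in both embryos. Library totals gave 2 higher and 0 lower of the 7, with a median of 0.13 (-0.74 over all genes). The list summed to 397 and 573 CPM in the choroid plexus-type cells and to 959 and 718 CPM in meningeal fibroblast-type cells, and the 3 called genes were all at higher levels in the latter, BMP4 at 62.7 and 53.2 CPM, WNT5A at a mean of 164.4 CPM and WLS at 332 and 246 CPM. BMP4, a midline signal, had 3 and 4 UMIs, a mean of 17.6 CPM against 1.33 CPM (4.28 ± 0.96, adjusted p = 0.0021). The ligand WNT5A rose by 2.22 ± 0.48 and WLS, which carries Wnt ligands to the surface, by 1.11 ± 0.35 (adjusted p = 0.0016 and 0.022). The latter call was lost under 5 alternatives, and that of WNT5A with at least 1000 genes per cell. OTX2, the homeobox factor needed to form the choroid plexus, was not called, with 30.1 and 72.7 CPM against 35.4 and 58.3 CPM, nor were ZIC1 (0.47, and negative under library totals) and ZIC2 (0.70). RSPO2, an enhancer of Wnt signaling, had 4 and 13 UMIs (24.1 and 55.6 CPM against 1.19 and 0.582 CPM), and MSX2 had 7 UMIs in 7 cells of embryo 1 and 0 in embryo 2. LMX1A, a roof plate factor, had 2 and 1. BMP7 had 0 and 1, and MSX1, WNT1, WNT3A, BMP5 and BMP6 had 0. Of 16 genes of the BMP and TGF-beta response, none passed the filter and 5 had 0 UMIs, and 2 stood higher and 7 lower in both embryos. That list summed to 78.2 and 107 CPM against 68.6 and 81.7 CPM in other cells. Among the higher genes BAMBI, a decoy receptor induced by BMP, had 6 and 6 UMIs, 36.1 and 25.6 CPM against 2.79 and 3.17 CPM.

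Few genes that mark position along the brain axis could be tested. Over all genes tested 8.35% were lower. Of 23 hindbrain genes, 18 had 0 UMIs in the choroid plexus-type cells, among them 11 of the 12 HOX genes. Of the 2 tested, IRX5 was lower, with 3 and 0 UMIs and a mean of 9.02 CPM against 63.1 and 86.9 CPM (-2.77 ± 0.86, adjusted p = 0.022, a call lost under 5 alternatives), and IRX3 was not called (-1.64, adjusted p = 0.12). Of 3 forebrain genes tested, NR2F1 was lower (-2.76 ± 0.83, adjusted p = 0.017) and TCF7L2 was not called, with 144 and 103 CPM against 268 and 266 CPM, although 5 alternatives called it lower. DESeq2 called 0 genes of either list. The ventricle of origin of the cells was not tested.

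Of the epithelial junction and polarity genes, 4 of 11 tested were higher and 0 lower, where 15.4% of all genes tested were higher and 8.35% lower. Their median log2 change was 0.41, or 0.68 at the bound, against -0.10 and -0.06 over all genes tested, and library totals gave 4 higher and 2 lower with a median of -0.22 (-0.74 over all genes). Over all 41, 12 stood higher and 12 lower in both embryos, and the list summed to 794 and 1137 CPM against 991 and 917 CPM in other cells. EPCAM, an epithelial adhesion molecule, stood at 48.1 and 59.8 CPM against 2.08 and 1.39 CPM (5.62 ± 0.69, adjusted p = 3.03e-06), and CGNL1, paracingulin of the apical junction, at 48.1 and 29.9 CPM against 1.08 and 0.550 CPM (6.14 ± 0.73, adjusted p = 1.57e-06). The desmosome protein DSP rose by 3.49 ± 0.58 and LSR, of tricellular junctions, by 2.30 ± 0.37. Nuclear genes of oxidative phosphorylation moved less: 28 of 38 tested were higher, 0 lower and 10 not called, with a median of 0.85. When classes were scaled by library totals, 7 of the 38 were higher (median 0.20), against 247 of all 3654 genes tested. By CPM, 22 of all 53 genes stood higher and 7 lower in both embryos. COX8A, a subunit of cytochrome oxidase, stood at 415 and 573 CPM against 189 and 261 CPM (1.75 ± 0.18, adjusted p = 1.11e-07). NDUFA3, of complex I, rose by 1.17 ± 0.19, ATP5MC3, of the ATP synthase rotor, by 1.37 ± 0.15, and UQCRQ and COX5B, of complexes III and IV, by 1.18 ± 0.18 and 1.15 ± 0.16.

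Most neuron genes tested, and some of those of radial glia and of dividing cells, were lower in the choroid plexus-type cells. The neuron list gave 0 higher and 6 lower of 7 tested (8.35% of all genes were lower), with a median of -1.72. It summed to 565 and 752 CPM against 2872 and 3466 CPM. Without the cells that met another gate, those of the neuron gate among them, 5 of 6 tested were lower, with a median of -3.48. NEFM, a neurofilament, stood at 24.1 and 21.4 CPM against 248 and 231 CPM (-2.92 ± 0.64, adjusted p = 0.0016). The RNA-binding ELAV4 (ELAVL4) fell by 2.98 on the log2 scale, NFL by 2.87, INA by 1.72, TBB3 (TUBB3) by 1.65 and GAD2, which makes the transmitter GABA, by 1.29. Under DESeq2, and also with cells of at least 1000 genes, 3 of the list were called, and DESeq2 did not call NEFM, NFL or INA. Of the named genes with the lowest changes, TTC9B, FAXC, JAKMIP2, CSRNP3, SLMO2 and FSTL5 had 0 UMIs in embryo 1 and 1 or 2 in embryo 2, against 53.6 to 116 CPM on average in other cells, with changes of -4.23 to -3.78. DESeq2 did not call CSRNP3, and an SLMO2 call (against other or radial glia-type cells) was lost with at least 50 TTR UMIs. The radial glia list gave 3 lower of 6 tested (median -1.16): PTPRZ1, a receptor phosphatase, stood at a mean of 16.7 CPM ± 6.61 (SD, n = 2) against 175.9 CPM ± 34.9 (-2.68 ± 0.44, adjusted p = 7.67e-05), FABP7, a fatty acid binder, fell by 2.23 and the filament VIM by 0.79, and DBI was not called. The neuron list varied with the UMIs of TTR, CLIC6 and FOLR1 in a cell, the counts that chose the cells, but in no single order. It summed to 630 and 246 CPM in the 3 and 1 cells with 5 to 19 such UMIs. In the 16 and 16 cells with 20 to 99 it summed to 2521 and 1049 CPM. In the 25 and 17 cells with at least 100 but under 500 it summed to 142 and 996 CPM. The 7 and 14 cells with 500 or more had 323 and 488 CPM.

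Of the cell cycle genes, 7 of 22 tested were lower and 0 higher, where 8.35% of all genes tested were lower, with a median of -0.51 against -0.10 over all genes. The 7 included CDKN1C, which is an inhibitor of the cell cycle. UBE2C, which drives exit from mitosis, stood at 72.2 and 120 CPM against 593 and 507 CPM (-1.95 ± 0.35, adjusted p = 0.00022). TPX2, of the spindle, fell by 1.30, the kinesin CENPE by 1.53 and NUSAP1 by 1.69, while the cyclin CCND2 was not called (-0.48, adjusted p = 0.14). The list summed to 1581 and 2898 CPM in the choroid plexus-type cells, so dividing-cell transcripts were present, and to 8183 and 6332 CPM in other cells. DESeq2 called 2 genes of the list, and 0 were called when all cells with at least 50 TTR UMIs were taken.

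**Figure D5:**
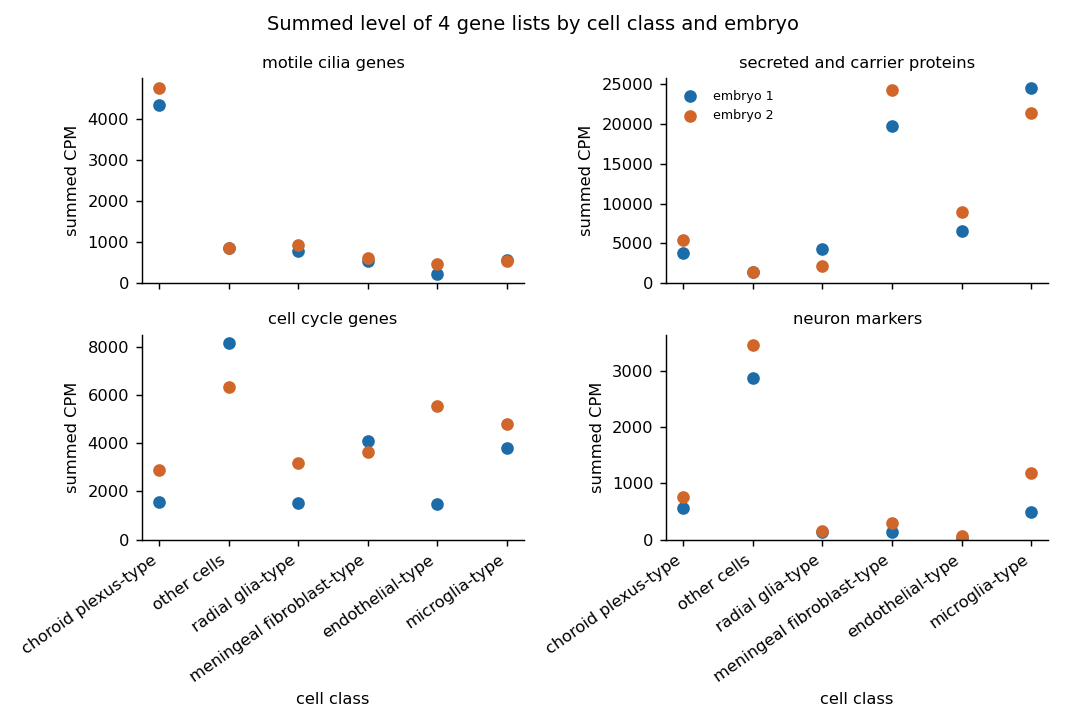
The panels give the summed CPM of 4 gene lists in 6 cell classes, with 1 point per embryo and y axes from 0. The motile cilia list is highest in the choroid plexus-type cells (4335 and 4758 CPM), the secreted list is higher in meningeal fibroblast-type, microglia-type and endothelial-type cells of both embryos and in radial glia-type cells of embryo 1, and the cell cycle and neuron lists are highest in other cells.

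Of the markers of other cell types, those of neurons and radial glia, described above, were present, at 565 and 752 CPM and at 691 and 1252 CPM in all. Most of the remaining markers were at or near 0, and KDR, MITF and the erythroid genes were not. Of 10 meningeal fibroblast markers 8 had 0 UMIs and 2 had 1, of 6 microglia markers 5 had 0, and all 9 liver and yolk sac markers had 0, among them albumin. Pineal markers had 2 UMIs in all and pericyte markers 7. Of 9 endothelial markers 8 had 0, including PECAM1 and CDH5, but KDR, the VEGF receptor, had 7 and 14 UMIs in 10 cells, at 42.1 and 59.8 CPM against 3.08 and 1.39 CPM (5.15 ± 0.58, adjusted p = 4.68e-07), and at 52.8 and 65.5 CPM without the haemoglobin-rich cells. In meningeal fibroblast-type cells KDR stood at 367 and 443 CPM. It stood at 1365 and 1740 CPM in endothelial-type cells, against which it was called lower (-4.72). Of 8 markers of the retinal pigment epithelium, which also makes transthyretin, TYR, TYRP1, BEST1, RLBP1 and MLANA had 0 UMIs and DCT and PMEL had 1 each, but the pigment cell factor MITF had 9 and 15 UMIs in 16 cells (54.1 and 64.1 CPM against 1.26 and 1.00, log2 change 6.30 ± 0.66, adjusted p = 2.35e-07). The erythroid list summed to 160477 and 63934 CPM, nearly all from HBB, and to 2656 and 604 CPM without the 5 haemoglobin-rich cells, against 2567 and 904 CPM in other cells, from which such cells had been removed. AHSP, the haemoglobin chaperone, and ALAS2, of heme synthesis, rose by 7.39 ± 0.92 and 6.76 ± 0.79, and both calls were lost without those 5 cells. Leaving the 5 cells out gave 849 calls in place of 867, 804 of them shared, and leaving haemoglobin-rich cells out of every class gave 870, of which 800 were shared.

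Another comparison set the choroid plexus-type cells against the 21 and 27 cells that met a gate for non-dividing radial glia, the progenitors that line the ventricles beside this epithelium. Of the genes tested 330 were called (9.03%), 249 higher (6.81%) and 81 lower (2.22%), which scaling by library totals turned into 107 higher and 230 lower. Haemoglobin-rich cells had been taken out of other cells only. Of the radial glia-type cells 1 of embryo 1 was haemoglobin-rich, with 20.9% of their UMIs there, and the erythroid list summed to 153052 and 777 CPM in them, against 160477 and 63934 CPM in the choroid plexus-type cells. Leaving such cells out of every class gave 338 calls, 318 of them among the 330. The radial glia-type cells held 88323 and 109406 UMIs, so a gene at 0 in them may stand at up to 15.2 CPM. All 8 genes named as highest had 0 UMIs there, and against that floor C2ORF40 was at least 93.8-fold higher in the choroid plexus-type cells, IGFBP7 at least 40.5-fold and F183A at least 28.7-fold. The cilia genes RSPH1, CCDC146 and SPEF2 were at least 17.1-fold, 12.9-fold and 12.3-fold higher, and ADGB and SPAG1, a factor of dynein assembly, at least 11.0-fold and 10.9-fold (adjusted p between 3.59e-11 and 0.00029). Of the motile cilia list 12 of 20 tested were higher and 0 lower, with a median of 3.77 at the bound against 0.08 over all genes tested. FABP7 was at 30.1 and 51.3 CPM against 1110 and 1133 CPM (-4.28 ± 0.31, adjusted p = 1.10e-09), and the radial glia list gave 4 lower of 6 tested, its gate genes aside. NPAS3 and HES4, transcription factors of neural progenitors, fell by 4.36 and 4.63, FSTL5 by 5.10 and SLMO2 by 4.16, and FBXO32, with 0 UMIs in the choroid plexus-type cells, was at least 14.1-fold lower, a call lost under DESeq2 and under a wider gate. Of the cell cycle list 3 were higher and 2 lower of 22 tested, where the radial glia-type cells had been chosen to lack 3 other genes of division. Of the neuron markers, 2 gate genes aside, 2 of 7 tested were higher and 0 lower. The neuron list summed to 565 and 752 CPM in the choroid plexus-type cells and to 136 and 155 CPM in radial glia-type cells. A wider gate, which still asked for 0 UMIs of the division genes MKI67, TOP2A and CENPF, gave 803 calls, 521 higher and 282 lower.

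Finally, the choroid plexus-type cells were set against the 6 and 17 endothelial-type cells, the other barrier cells of the brain. Of the genes tested 931 were called (25.5%), 422 higher (11.5%) and 509 lower (13.9%), or 290 higher and 577 lower with library totals. Of the endothelial-type cells of embryo 1, 1 was haemoglobin-rich with 28.6% of their UMIs, and the erythroid list summed to 120719 and 637 CPM in them. Without such cells in any class 916 genes were called, 849 of them among the 931, with 458 higher and 458 lower. Of the motile cilia list 19 of 20 tested were higher and 0 lower, with a median of 3.27 at the bound against -0.02 over all genes tested. CP had 0 UMIs in endothelial-type cells, against the 206 and 95 UMIs of the choroid plexus-type cells, 177 of them in 1 cell. Against a floor of 14.2 CPM, F183A was at least 30.6-fold higher in the choroid plexus-type cells, CCDC173 and C1ORF194 at least 22.8-fold and 15.3-fold, CXADR, a junction receptor of epithelia, at least 13.8-fold, and CCDC146 also at least 13.8-fold. In the other direction LAMA4, a laminin of vessel walls, TGFB1, GBP1 and CLC1B had 0 UMIs in the choroid plexus-type cells and were at least 98.0-fold, 64.6-fold, 50.6-fold and 46.2-fold lower (adjusted p between 1.25e-09 and 3.92e-07). The lists shared by both barriers were split: of the epithelial junction and polarity genes 2 of 11 tested were higher and 6 lower, and of the ion and water transport genes 3 of 12 were higher and 3 lower. IGFBP7 stood at 463 and 765 CPM in the choroid plexus-type cells and at 2552 and 3272 CPM in endothelial-type cells. Of the neuron markers 4 of 9 tested were higher and 0 lower. The neuron list summed to 565 and 752 CPM in the choroid plexus-type cells and to 31.5 and 68.9 CPM in endothelial-type cells. The 3 comparisons share the choroid plexus-type cells and 1 fit, so their calls are not independent of each other.

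Between the embryos, haemoglobin made up 15.9% of the UMIs of the choroid plexus-type cells in embryo 1 and 6.34% in embryo 2. NES, an intermediate filament of progenitors, had 0 UMIs in embryo 1 and 26 in 11 cells of embryo 2, and was not called against other cells (-0.65, adjusted p = 0.31), although 4 alternatives called it lower. FAM216B had 7 and 36 UMIs. With 1 library per embryo these differences have no test. Of the genes the study names, BMP7 is given above, COL9A1 had 0 UMIs in the choroid plexus-type cells, and BPGM, a glycolytic enzyme of red cells, had 9 and 5 UMIs, which came to 7.54 and 0 CPM without the haemoglobin-rich cells.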

How the data were processed

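The authors sequenced 1 10x library per embryo and deposited a table of raw UMI counts (gene models by barcodes), made with Cell Ranger 3.1.0 on the TS_2.0 assembly. Their processing notes also name fastp and Seurat 3. No normalized value was used. The tables held 18926 barcodes (9241 and 9685) and 41868023 and 38077767 UMIs, with 23975 models under 18543 names, which were summed by name. Tables and annotation used here gave no coordinates or sequence of that assembly, so none are printed.

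Python 3.11.15 (scipy 1.17.1) and R 4.3.3 with edgeR 4.0.16 were used. UMIs were summed per embryo and class (6 classes, 12 libraries), filtered with filterByExpr, scaled with TMM factors and tested with the quasi-likelihood test with embryo as a block, with 5 residual degrees of freedom and a common biological coefficient of variation of 0.141. A log2 change comes with its SE. The fit was tested on simulated data with 200 genes changed 4-fold. It recovered 100%, 96% and 98.5% of them against other, radial glia-type and endothelial-type cells. Of its calls 5.66%, 6.80% and 3.43% were false, where the threshold was 0.05. The simulation set the biological coefficient of variation at 0.1, below the 0.141 of the data. It changed only genes of at least 100 CPM and otherwise gave every class the proportions of other cells. These rates therefore do not cover sparser genes or the differences in make-up between the real classes. Genes that chose the cells or a class of a comparison, and haemoglobin genes, stayed in the fit where they passed the filter. They are part of the counts over all genes tested and of the adjustment. They were left out of the named genes and of the tested and called genes of each list, and no p-value is given for them.

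The genes named were the 12 highest and 6 lowest called changes against other cells (8 and 6 against radial glia-type, 6 and 4 against endothelial-type cells) among genes with a symbol, at least 50 CPM in the higher class and the same direction in both embryos, up to 6 called and 3 not called genes of each list, and BMP7, BPGM, COL9A1 and DIO2 (no model carries the last name), which the study discusses. Some genes that met this rule are not reported here. Other genes were chosen after their values were seen. The cells, the 23 lists and the gates were chosen with earlier results of these data known, and 53 gene names that the annotation gives in another form were matched after the files were seen. The alternatives were RLE size factors, library totals, DESeq2 1.42.0, no filter, no replicate block, all 3 genes detected, at least 20 UMIs of them, cells of another gate left out, at least 1000 genes per cell, haemoglobin-rich cells kept among other cells, and each embryo left out. A minimum of 50 TTR UMIs, a wider radial glia gate, and leaving out haemoglobin-rich cells from the choroid plexus-type cells alone or from every class, were added after seeing the data.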

Additional observations from a re-analysis of the deposited data

How the results depend on the processing

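The number of genes called against other cells, 867 in the report, was 1537 with library totals and 412 with the minimum of 1000 genes, and lay between 646 and 1068 under the other alternatives. Against radial glia-type cells, 330 became 183 with the minimum of 1000 genes and 803 under the wider radial glia gate, and against endothelial-type cells 931 became 609 with all 3 genes detected. Without the replicate block the counts were 755, 265 and 881. No filter gave 537 higher and 531 lower against other cells. The share of choroid plexus-type cells, 0.561%, became 0.0786% with all 3 genes detected, 0.477% without cells of another gate, 0.273% under the minimum of 1000 genes and 0.847% for at least 50 TTR UMIs alone. The median UMIs, 2568 as the mean of the embryos, became 9215.5 with all 3 genes and 6438 with at least 1000 genes. With 1 embryo left out there is no test, the share lay between 0.515% and 0.607% and the median UMIs between 1830 and 3306. The log2 change of 7 of the 101 gene results without embryo 1, and of 20 without embryo 2, moved by more than the SD between the embryos. No called gene changed sign, but of those not called DBI, NES, PTN and ZIC2 did (in embryo 1 alone, ZIC2 stood at -1.33 and PTN at -1.95). IRX3, also not called, kept its sign but stood at -0.25 in embryo 1 alone and at -3.47 in embryo 2 alone. Another 15 called results, none with a class at 0, moved by over 1.5 times in fold. In embryos 1 and 2 alone their log2 changes were 8.18 and 6.18 for AK7, 6.03 and 4.79 for CP, 2.83 and 3.90 for CTGF, 1.71 and 4.64 for DSP, 2.80 and 4.04 for ENPP2, 4.54 and 5.87 for KDR, 1.55 and 2.81 for LSR, 1.99 and 3.28 for SLC12A2, 2.71 and 4.77 for SLC2A12, -1.73 and -4.46 for ELAV4, -0.69 and -1.72 for GAD2, -1.03 and -2.29 for INA, -3.34 and -0.87 for NUSAP1, -3.27 and -2.35 for PTPRZ1 and -3.13 and -1.24 for TBB3. In 14 more a class was at 0 in an embryo, so the size of the shift cannot be read. Of 1261 values of the 101 gene results under the alternatives with a test, 1190 kept direction and side of the threshold, 47 lost the call, 20 gained it and 4 reversed: AHSP (-0.42) and ALAS2 (-0.51) with haemoglobin-rich cells kept among other cells, PTN (0.15) without cells of another gate, and ZIC1 (-0.17) with library totals. The causes were not tested. Of the 47 lost calls, 16 were under DESeq2, with F183A in all 3 comparisons and NEFM among them. With 400253 UMIs in the 99 cells, a level under 7.50 CPM could not be told from 0.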
